A study of Mus musculus with 6 samples.

Results

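A set of 9 genes of regulated cell death was followed in mouse Th17 cells labelled as RTF1-deficient. They are the death receptor Fas, the death ligands Fasl and Tnfsf10, the caspases Casp8, Casp1 and Casp4, the pore-forming Gsdmd and Mlkl, and the kinase Ripk3. They were chosen by symbol, and all 9 were present among the 31017 rows of the count table. All 9 also passed the filter on low counts that left 14268 genes for testing. The samples were Th17 cells, helper T cells named for interleukin-17, differentiated in culture. There were 3 control libraries, whose genotype is given as WT, and 3 libraries of RTF1-deficient cells, whose genotype is given as KO. RTF1 is a nuclear factor that travels with RNA polymerase II and promotes ubiquitination of histone H2B. How the gene was removed, the strain and age of the mice, the time in culture, and whether the libraries of a group came from separate animals are not given in the sources used here, so p-values measure only the spread between these libraries.

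Death receptors are surface proteins of the TNF receptor family whose cytoplasmic death domain recruits adaptors and caspase-8 once a ligand has bound. Active caspase-8 starts apoptosis and also cleaves the kinases RIPK1 and RIPK3. When caspase-8 is not active, RIPK3 can phosphorylate MLKL, which then breaches the plasma membrane in a process called necroptosis. Pyroptosis follows another route, in which inflammatory caspases cut gasdermin D into a fragment that forms membrane pores. In activated T cells, Fas and Fas ligand are best known for the removal of expanded clones.

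Library totals ran from 16489813 to 51271226 counts. Rtf1 itself held 94.0, 91.2 and 88.3 CPM (counts scaled to a common library total with TMM factors) in control libraries 1, 2 and 3, and 45.3, 30.4 and 26.2 CPM in KO libraries 1, 2 and 3. The KO libraries thus kept Rtf1 RNA at 37.2% of the control mean, and these data hold no measure of the protein. The libraries numbered 3 stand apart: they held 11376 and 5147 counts over 4 Y-linked genes, where the other libraries held 1 to 3. Xist held 5 and 1 counts in them and 14668 to 28176 in the others. By these counts the libraries numbered 3 read as male and the others as female, so the libraries of a group did not all come from the same animals. Results are therefore also given from the libraries numbered 1 and 2 alone. Cd3e and Cd4 were present in every library, and the summed level of 8 T cell and Th17 markers ran from 2350 to 2820 CPM in control and from 1160 to 1800 CPM in KO, with 5 markers lower and 1 higher. Of 8 myeloid markers, Cd68 was called higher in KO and none was lower. Mpeg1, Fcer1g and Csf1r were also called higher. They passed the filter on low counts (0.325 CPM) only through the KO libraries, so nothing is read from those calls. The sum of the 8 ran from 2.44 to 5.39 CPM in control and from 24.5 to 34.6 CPM in KO. Most of that sum was Cd68, at 13.3 to 25.3 CPM in KO, and Mpeg1, at 4.03 to 7.21 CPM. Lyz2 ran from 0 to 0.095 CPM in control and from 0.294 to 1.75 CPM in KO, and Itgam, Adgre1 and Tyrobp stayed between 0 and 0.254 CPM in every library. Of 6 CD8 and NK cell markers 1, Eomes, was called higher, but it too passed that filter only through the KO libraries. Klrb1c and Ncr1 were at 0, and the sum of the 6 was 10.8 to 15.1 CPM in control and 15.1 to 16.2 CPM in KO. Of 4 dendritic cell markers 1, Xcr1, was higher, and the sum was 1.75 to 3.56 CPM in control and 7.93 to 10.3 CPM in KO. The sums of 5 B cell, 4 erythroid and 4 fibroblast markers stayed at or under 3.09 CPM in every library.

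The KO libraries held more RNA for the death receptor, both ligands and 2 of the 3 caspases, whereas the executors of necroptosis and pyroptosis were not called. Casp1 showed the largest change at 4.99 times the control mean, followed by Fas at 3.78 times. Of the 9 genes, 5 were called higher in KO (edgeR's quasi-likelihood test, Benjamini-Hochberg adjusted p under 0.05) and 0 lower. The same 5 had an unadjusted p under 0.05. The knockout moved much of the transcriptome: 46.2% of all tested genes were called, 23.2% higher and 23% lower. Every KO library lay above every control library for these 5 genes, as for 29.9% of all tested genes, and the groups overlapped for the other 4, as for 42.1% (groups that do not overlap made up 57.9%). With the replicate block 53.8% of all genes and 6 of the 9 were called. The 5 calls among 9 genes lie near the share of all genes called in either direction, and all 5 were increases. The median log2 fold change was 0.43 over the 9 genes and 0.013 over all tested genes. In bulk RNA, more cells that carry a transcript and more of it per cell cannot be told apart.

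**Figure D1:**
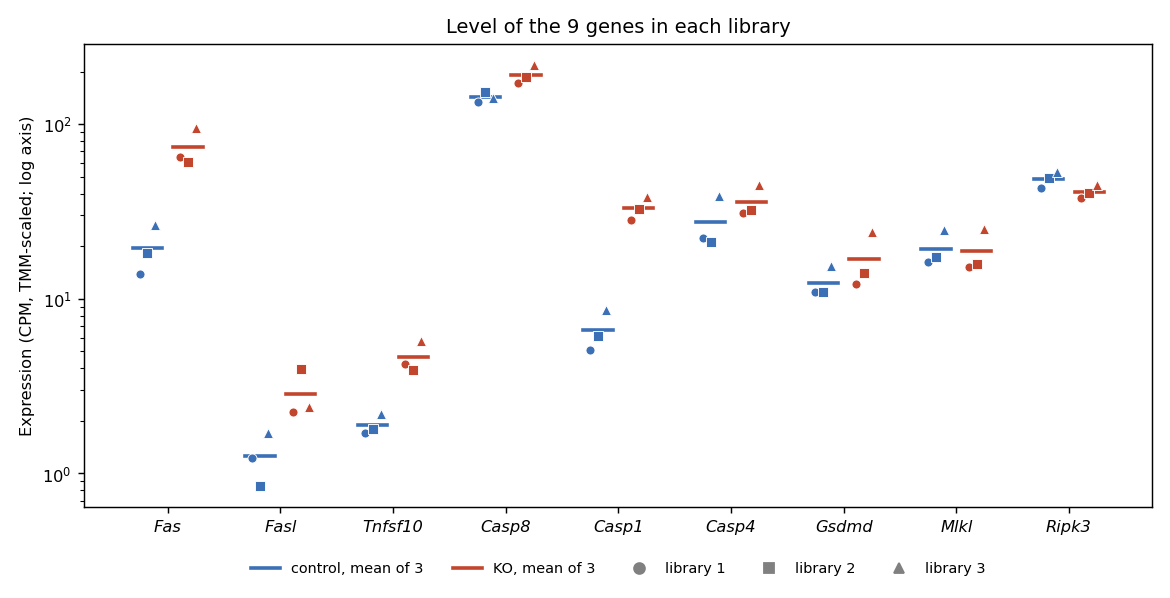
Expression of the 9 genes in CPM on a log axis, with 1 point per library (circle, square and triangle for libraries 1, 2 and 3) and a line at the mean of each group of 3. The KO points of Fas, Fasl, Tnfsf10, Casp8 and Casp1 lie above all control points, and those of the other 4 genes overlap the control points.

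Fasl encodes Fas ligand, the membrane protein with which activated T cells engage Fas. Its gene lies at chr1:161780689-161788495 (minus strand, GRCm38). Fasl was scarce, at 1.22, 0.846 and 1.71 CPM in control libraries 1, 2 and 3 and at 2.24, 3.95 and 2.39 CPM in KO libraries 1, 2 and 3, or 20 to 148 counts per library. The groups did not overlap, and KO library 2 was the highest. Fasl rose from 1.26 ± 0.434 to 2.86 ± 0.948 CPM (mean ± SD, n = 3), which edgeR put at a log2 fold change of 1.19 (adjusted p = 0.0329, SE 0.389). Of 6 fits with a library removed, 4 lost this call: without KO library 2 the fold change was 0.88 (adjusted p = 0.149), without control library 2 it was 0.93 (0.0838), without control library 1 it was 1.12 (0.0828), and without KO library 3 it was 1.30 (0.052).

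Tnfsf10 encodes TRAIL, the ligand of the death receptor Tnfrsf10b. Its gene lies at chr3:27317028-27342427 (plus strand). Control libraries 1, 2 and 3 held 1.70, 1.80 and 2.19 CPM and KO libraries 1, 2 and 3 held 4.21, 3.93 and 5.74 CPM. Every KO library lay well above every control library, although each value rests on only 28 to 147 counts. The mean rose from 1.89 ± 0.257 to 4.63 ± 0.978 CPM (mean ± SD, n = 3; edgeR log2 fold change 1.27, SE 0.282, adjusted p = 0.00627), and no fit with a library removed lost the call.

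Fas encodes the receptor of Fas ligand. Its gene lies at chr19:34290666-34327772 (plus strand). Control libraries 1, 2 and 3 held 13.9, 18.2 and 26.3 CPM, and KO libraries 1, 2 and 3 held 65.2, 60.8 and 94.9 CPM. The lowest KO library was thus far above the highest control library. Fas rose from 19.5 ± 6.31 to 73.6 ± 18.5 CPM (mean ± SD, n = 3; edgeR log2 fold change 1.91, SE 0.254, adjusted p = 0.000675), with a range of 1.66 to 2.12 when 1 library was left out and 1.96 in the libraries numbered 1 and 2. Receptor RNA rose in larger measure than ligand RNA in the comparison of means, but the log2 ratio of Fasl to Fas per kilobase, −3.42, −4.34 and −3.85 in control and −4.77, −3.85 and −5.22 in KO, overlapped between the groups (difference −0.75, two-sided exact permutation test, p = 0.2). With 3 libraries against 3 this test cannot give a p below 0.1.

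Casp8 encodes caspase-8, the initiator caspase of the death receptor pathway and the brake on necroptosis. Its gene lies at chr1:58795374-58847503 (plus strand), 36.49 kb beyond the end of Cflar, which encodes c-FLIP, its catalytically inactive relative and regulator. Control libraries 1, 2 and 3 held 134, 153 and 141 CPM of Casp8, and KO libraries 1, 2 and 3 held 172, 186 and 218 CPM. The groups did not overlap, but the shift was small beside that of Fas. Casp8 rose from 143 ± 9.63 to 192 ± 23.5 CPM (mean ± SD, n = 3; edgeR log2 fold change 0.43, SE 0.124, adjusted p = 0.0208). The call was lost without control library 1 (0.31, adjusted p = 0.167), control library 3 (0.36, 0.0649), KO library 2 (0.45, 0.0568) or KO library 3 (0.33, 0.0905), and in the libraries numbered 1 and 2 alone (0.32, 0.0782). Cflar held 178 ± 37.8 CPM in control and 224 ± 19.7 CPM in KO and was not called (0.34, adjusted p = 0.119), although it was called with the replicate number as a block (0.36, adjusted p = 0.0193) and in the libraries numbered 1 and 2 (0.43, 0.0322). Without control library 2, the lowest control library for Cflar, its fold change was 0.18 (adjusted p = 0.333). The log2 ratio of Cflar to Casp8 stood at −1.83 ± 0.382 in control libraries and −1.90 ± 0.121 in KO libraries (SD, n = 3; two-sided exact permutation test, p = 0.9), and the groups overlapped.

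Casp1 and Casp4 are inflammatory caspases encoded side by side on chromosome 9, Casp1 at chr9:5298517-5307265 and Casp4 at chr9:5308828-5336783, both on the plus strand and separated by 1.56 kb. Caspase-1 is activated by inflammasomes and matures interleukin-1 beta and interleukin-18, whereas mouse Casp4 encodes the enzyme long known as caspase-11, which senses cytosolic lipopolysaccharide. Casp1 stood at 5.11, 6.13 and 8.62 CPM in control libraries 1, 2 and 3 and at 28.1, 32.7 and 38.4 CPM in KO libraries 1, 2 and 3. The groups were far apart, with 84 to 363 counts per control library and 739 to 1224 per KO library. Casp1 rose from 6.62 ± 1.81 to 33.0 ± 5.17 CPM (mean ± SD, n = 3; edgeR log2 fold change 2.30, SE 0.218, adjusted p = 0.000184). Its fold change stayed between 2.10 and 2.47 when 1 library was left out and was 2.42 in the libraries numbered 1 and 2. Casp1 is also expressed by myeloid cells, and the sum of 8 myeloid markers was higher in every KO library (24.5 to 34.6 CPM) than in every control library (2.44 to 5.39 CPM). Of these, Cd68 was called higher. Mpeg1, Fcer1g and Csf1r were called too, but passed the filter on low counts only through the KO libraries. Itgam, Adgre1 and Tyrobp were at or under 0.254 CPM in every library. The part of the myeloid markers' difference in the result was not tested.

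Casp4 was not called. Control libraries 1, 2 and 3 held 22.2, 21.1 and 38.9 CPM, and KO libraries 1, 2 and 3 held 31.1, 32.2 and 44.9 CPM. Control library 3 lay above KO libraries 1 and 2, so the groups overlapped. The means were 27.4 ± 10 and 36.1 ± 7.71 CPM (mean ± SD, n = 3; edgeR log2 fold change 0.39, SE 0.253, adjusted p = 0.234), with no call. It was called with the replicate number as a block (0.43, adjusted p = 0.0188), without control library 3 (0.68, adjusted p = 0.00992) and in the libraries numbered 1 and 2 alone (0.55, 0.0126). Without KO library 3, control library 1 or control library 2 the fold change was 0.20, 0.21 and 0.22. Per kilobase of exon, counts of Casp4 were 1.75, 1.39 and 1.82 times those of Casp1 in control libraries 1, 2 and 3, and 0.447, 0.397 and 0.472 times in KO libraries 1, 2 and 3. Per kilobase, the order of the 2 neighbours was thus opposite in the 2 groups. That order rests on the exon lengths used. Without length correction, KO libraries 1, 2 and 3 held 819, 1204 and 884 counts of Casp4 and 739, 1224 and 755 of Casp1. The change in the ratio between groups does not depend on length. The log2 ratio fell by 1.91, from 0.72 ± 0.212 to −1.19 ± 0.128 (SD, n = 3; two-sided exact permutation p = 0.1, the lowest that 3 against 3 can give; adjusted over 4 ratios p = 0.4).

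**Figure D2:**
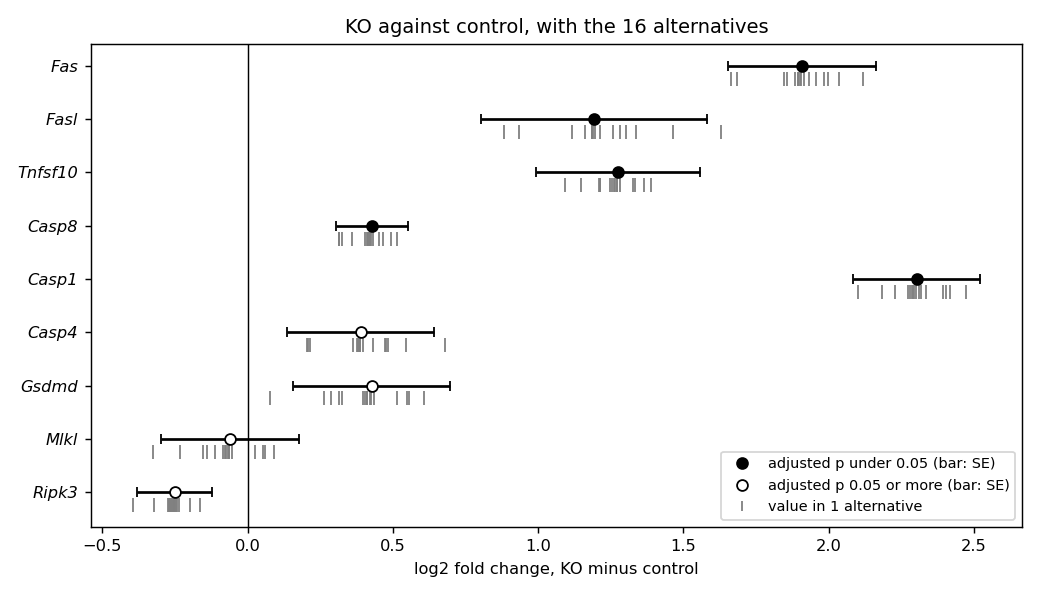
Log2 fold change of KO against control for each gene (circle, with its SE as a bar; filled where the adjusted p is under 0.05), and below it a tick for the value in each of 16 alternative analyses. The ticks of Casp1, Fas, Tnfsf10 and Fasl lie right of 0.8, and those of Mlkl lie on both sides of 0.

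The sequence before the start of the genes is shown for Fas and Casp1, which rose most, and for Casp4, the neighbour that was not called. Each window holds 250 bases before and 50 bases after a RefSeq transcript start (RefSeq, GRCm38.p6, plus strand for all 3), read 5′ to 3′. Capitals mark matches to an interferon-gamma-activated site (TTCNNNGAA) or an NF-kB site.
Fas, chr19:34290409-34290708: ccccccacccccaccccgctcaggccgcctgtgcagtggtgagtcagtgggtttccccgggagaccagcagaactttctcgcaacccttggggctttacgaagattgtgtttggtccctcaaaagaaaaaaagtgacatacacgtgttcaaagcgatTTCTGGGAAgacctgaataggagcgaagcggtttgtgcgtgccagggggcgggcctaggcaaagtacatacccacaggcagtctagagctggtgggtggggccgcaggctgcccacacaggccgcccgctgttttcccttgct
Casp1, chr9:5298267-5298566: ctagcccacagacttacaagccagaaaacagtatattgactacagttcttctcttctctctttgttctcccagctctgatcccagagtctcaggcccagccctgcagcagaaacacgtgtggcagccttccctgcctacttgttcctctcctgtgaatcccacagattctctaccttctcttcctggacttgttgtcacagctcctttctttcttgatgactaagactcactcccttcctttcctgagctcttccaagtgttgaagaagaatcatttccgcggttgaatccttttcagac
Casp4, chr9:5308599-5308898: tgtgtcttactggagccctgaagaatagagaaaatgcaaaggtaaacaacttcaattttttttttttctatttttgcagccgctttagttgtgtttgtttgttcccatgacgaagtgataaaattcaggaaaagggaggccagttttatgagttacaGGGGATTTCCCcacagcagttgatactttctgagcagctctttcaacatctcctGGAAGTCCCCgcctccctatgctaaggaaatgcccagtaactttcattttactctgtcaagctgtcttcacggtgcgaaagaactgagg
RefSeq windows were at hand for 8 of the 9 genes, all but Gsdmd, and for Casp4 there were 2 nearly identical ones. Both strands were searched for 4 motifs. The interferon-stimulated response element core (GAAA, any 2 bases, GAAA) was in 0 of the 8 genes' windows and in 3.44% of all 32851 windows. The interferon-gamma-activated site TTCNNNGAA, which reads the same on both strands, was found only in Fas, as TTCTGGGAA from position −93, against 8.3% of all windows. The NF-kB site was found only in Casp4, as 2 overlapping matches from positions −93 and −92 and another from −39, against 8.46% of all windows. The p53 half-site was found only in Fasl, from position −115, against 8.36% of all windows. These are matches of letters within 300 bases and say nothing of binding.

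Gsdmd encodes gasdermin D, the pore-forming substrate of both inflammatory caspases, at chr15:75862327-75867408 (plus strand). It stood at 10.9, 10.9 and 15.4 CPM in control libraries 1, 2 and 3 and at 12.2, 14.0 and 24.2 CPM in KO libraries 1, 2 and 3. KO library 3 was the highest of all, and KO libraries 1 and 2 lay within the control range. The means were 12.4 ± 2.59 and 16.8 ± 6.46 CPM (mean ± SD, n = 3; edgeR log2 fold change 0.43, SE 0.270, adjusted p = 0.224). Between libraries of equal number, KO was higher by 0.16, 0.36 and 0.65 on the log2 scale for numbers 1, 2 and 3. The fold change was 0.26 in the libraries numbered 1 and 2 (adjusted p = 0.3) and 0.40 with the replicate number as a block (adjusted p = 0.0595). It was 0.076 when KO library 3 alone was left out (adjusted p = 0.813) and 0.29 without control library 1.

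Ripk3 encodes the kinase that commits a cell to necroptosis, at chr14:55784995-55788865 (minus strand). Its values were 43.3, 49.4 and 53.2 CPM in control libraries 1, 2 and 3 and 37.6, 40.3 and 44.9 CPM in KO libraries 1, 2 and 3. KO library 3 lay above control library 1, and the other 2 KO libraries lay below all controls. The means were 48.7 ± 5.02 and 41.0 ± 3.70 CPM (mean ± SD, n = 3; edgeR log2 fold change −0.25, SE 0.130, adjusted p = 0.142), and the gene was not called. It lay between −0.39, without control library 1, and −0.20, without KO library 1.

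Mlkl, at chr8:111311797-111338177 (minus strand), encodes the substrate of RIPK3 that disrupts the membrane. Control libraries 1, 2 and 3 held 16.2, 17.3 and 24.7 CPM and KO libraries 1, 2 and 3 held 15.3, 15.8 and 25.1 CPM. The groups overlapped almost entirely, with library 3 the highest in each. The edgeR fit gave a log2 fold change of −0.061 (SE 0.238, adjusted p = 0.85). It was 0.026 when only library size was used for scaling, which moved the median over all genes from 0.013 to 0.102. Without control library 3 it was 0.092, and without KO library 3 it was −0.325. The log2 ratio of Mlkl to Ripk3 stood at −1.35 ± 0.213 in control libraries and −1.17 ± 0.280 in KO libraries (SD, n = 3; two-sided exact permutation test, p = 0.5).

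**Figure D3:**
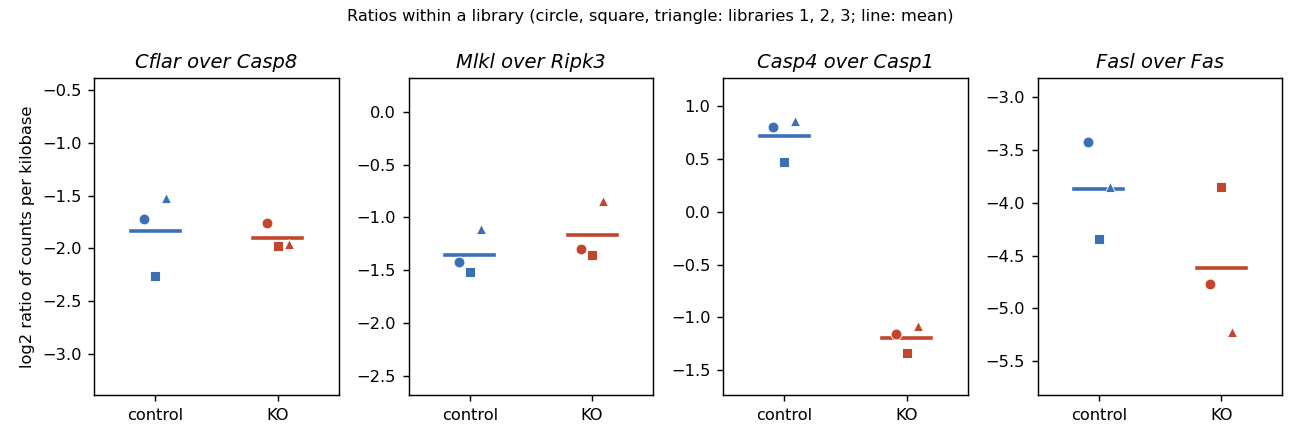
Log2 ratio of counts per kilobase of exon for 4 pairs of genes within each library (points) with the mean of each group of 3 (lines), every panel spanning 3 log2 units. Casp4 over Casp1 separates the groups, at 0.47 to 0.87 in control and −1.33 to −1.08 in KO, and the other 3 ratios overlap.

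The levels can be compared between genes only per length. In control, Casp8 led with 49.3 CPM per kilobase of exon and Ripk3 followed with 21.2. Fas (9.44), Mlkl (8.43) and Casp4 (7.39 CPM per kilobase) came next, with library ranges that overlapped one another. Gsdmd (5.23) and Casp1 (4.42) also overlapped, and Fasl (0.649) and Tnfsf10 (0.360 CPM per kilobase) were lowest. In KO, Casp8 still led at 66.3 CPM per kilobase, but Fas came next at 35.7 and Casp1 after it at 22.1. Casp1 libraries ran from 18.7 to 25.6 and Ripk3 libraries from 16.4 to 19.6 CPM per kilobase, so these neighbours overlapped. Casp4 (9.72), Mlkl (8.13) and Gsdmd (7.07 CPM per kilobase) overlapped as well, and the ligands stayed lowest at 1.48 for Fasl and 0.879 for Tnfsf10.

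Most of the 9 genes were highest in library 3 of their group. Library 3 was the highest of the 3 control libraries for 8 of the 9 genes, all but Casp8, against 41.4% of all tested genes. It was the highest of the 3 KO libraries for 8 of the 9 genes, all but Fasl, against 34.2% of all tested genes. In both groups together it was the highest for 7 of the 9, against 19.4% of all tested genes. These are also the libraries with Y-linked counts, and the part of that difference in the pattern was not tested. Within libraries 1 and 2, where 45% of all genes were called, Casp1 (log2 fold change 2.42), Fas (1.96), Fasl (1.63), Tnfsf10 (1.21) and Casp4 (0.55) were called higher. Casp8 (0.32), Gsdmd (0.26), Mlkl (−0.11) and Ripk3 (−0.26) were not called there. The remaining pair, library 3 of each group, gave log2 differences of 2.15 for Casp1, 1.85 for Fas, 1.39 for Tnfsf10, 0.63 for Casp8, 0.65 for Gsdmd, 0.48 for Fasl, 0.21 for Casp4, 0.019 for Mlkl and −0.25 for Ripk3, with 1 library per group and no test.

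**Figure D4:**
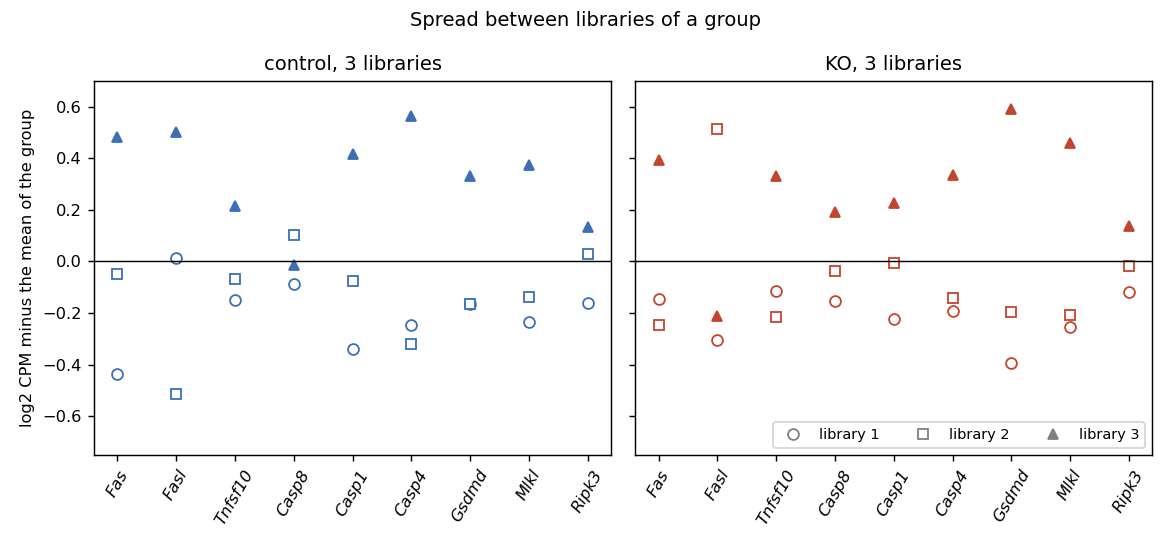
Log2 CPM of each gene minus the mean of its group, for the 3 control libraries (left) and the 3 KO libraries (right), with library 3 as filled triangles. Library 3 is the highest point for 8 of the 9 genes in each group, with Casp8 the exception in control and Fasl in KO.

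For each called gene, the tested genes with the most similar course over the 6 libraries were looked up, as the smallest Euclidean distance between centred log2 CPM values. Predicted genes, Rik symbols and mitochondrial genes were left out of the search. Symbols that begin with capitals and a digit or end in os were left out too. The genes named are thus the nearest among the symbols kept. Casp1 lay nearest to Mxd1 (distance 0.0907) and Trafd1 (0.261). Tnfsf10 lay nearest to Stoml1 (0.183) and Nlrc5 (0.199), and Casp8 to Tmub1 (0.099) and Gmppb (0.106). Fasl was nearest to Ccdc39 (0.221) and Cpt1c (0.406). Fas was nearest to Rnaset2a (0.377, a gene with under 2 CPM in either group) and Prag1 (0.4).

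The rest of the death receptor, necroptosis and inflammasome machinery was read from a list of 47 other genes, of which 40 were tested. Tlr3, Nlrp1a, Nlrp1b, Nlrp3 and Il18 passed the filter on low counts only through the KO libraries, so nothing is read from the calls of these 5. Of the 35 genes that passed it in both groups, 8 were called higher and 8 lower in KO, which is 45.7% of them, against 46.6% of the 12399 genes that did so in the whole table. Their median log2 fold change was 0.19. Over all 40 genes the counts were 12 higher and 8 lower, 17 and 9 with the replicate block, 17 and 5 when only library size was used for scaling, and 13 and 6 in the libraries numbered 1 and 2. In those 4 libraries Tnfrsf10b (adjusted p = 0.137), Tnfrsf21 (0.107), Lta (0.106), Birc3 (0.147) and Sharpin (0.0779) were not called. Death receptors and ubiquitin regulators each held calls in both directions.

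All 4 other death receptors on the list were called, 2 in each direction, where 46.2% of all tested genes were called. Tnfrsf1a, the main receptor of TNF, rose from 30.5 ± 2.72 to 52.1 ± 5.98 CPM (mean ± SD, n = 3; edgeR log2 fold change 0.77, adjusted p = 0.00218). The TRAIL receptor Tnfrsf10b rose by 0.38 (adjusted p = 0.0391), which DESeq2 and 5 of 6 fits with a library removed did not call. Tnfrsf25, a receptor with costimulatory function in T cells, fell from 46.2 ± 3.29 to 23.9 ± 3.18 CPM (−0.95, adjusted p = 0.001). Tnfrsf21 was low in both groups (−1.07, adjusted p = 0.0407) and lost its call in 4 of such fits. Of the ligands, Lta, which encodes lymphotoxin alpha, fell (−0.83, adjusted p = 0.0476). Its fold change stayed between −1.27 and −0.61 when 1 library was left out, but 4 of those 6 fits lost the call, as did scaling by library size only (−0.74, adjusted p = 0.0641). Tnf was not called (0.46, adjusted p = 0.0656). The replicate block brought Tnf past the threshold (0.48, adjusted p = 0.0337), and the fold change was 0.22 without control library 3 (0.226) and 0.25 in the libraries numbered 1 and 2 (0.19).

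Among adaptors and signalling platforms, Ripk1, the kinase that joins TNF receptor signalling to caspase-8 and RIPK3, rose from 69.1 ± 11.6 to 164 ± 10.5 CPM (mean ± SD, n = 3; edgeR log2 fold change 1.25, adjusted p = 0.000345). Tradd, the adaptor of TNFR1, rose from 15.2 ± 2.67 to 26.1 ± 1.64 CPM (0.79, adjusted p = 0.00464). Fadd, which links Fas to caspase-8, was not called (−0.086, adjusted p = 0.651). Of 9 ubiquitin regulators, 3 were called higher and 1 lower, where 23.2% of all tested genes were called higher and 23% lower. Birc2, which encodes the ubiquitin ligase cIAP1, rose by 0.76 (adjusted p = 0.00601), and its relative Birc3, which encodes cIAP2, fell by 0.34 on the log2 scale (adjusted p = 0.0429), which 4 of 6 fits with a library removed did not call. Rnf31, the catalytic subunit of the linear ubiquitin ligase, rose by 0.48 (adjusted p = 0.00776). Its partner Sharpin rose by 0.38 (adjusted p = 0.0268), which 5 of 6 such fits did not call.

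Downstream of caspase-8, Bid, the link to mitochondrial apoptosis, fell from 12.8 ± 0.415 to 8.17 ± 1.02 CPM (mean ± SD, n = 3; edgeR log2 fold change −0.65, adjusted p = 0.0127). Without KO library 2 its call was lost (edgeR log2 fold change −0.60, adjusted p = 0.0596). Casp2, Casp6 and Casp9 were not called. Casp6 gave 0.52 (adjusted p = 0.245) and passed the threshold once the replicate number was a block (0.59, adjusted p = 0.00226). Casp6 reached 0.98 when control library 3 was left out, and 0.22, 0.27 and 0.29 without KO library 3, control library 1 and control library 2.

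Zbp1, a nucleic acid sensor that engages RIPK3, rose from 27.7 ± 1.88 to 95.2 ± 8.67 CPM (mean ± SD, n = 3; edgeR log2 fold change 1.78, adjusted p = 5.74e-05). Tlr3 held 0 counts in every control library and 16, 25 and 37 counts in KO libraries 1, 2 and 3. Ticam1, the adaptor of Tlr3, held 26.6 ± 2.61 and 27.8 ± 2.85 CPM and was not called. Of the inputs of RIPK3-dependent signalling, Zbp1 and Ripk1 were thus higher in KO, and Ticam1 was not called. Ripk3 and Mlkl themselves were not called.

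Of the inflammasome sensors, those that passed the filter only through KO were scarce. Nlrp1a held 0.412 ± 0.306 CPM in control and 2.07 ± 0.515 CPM in KO (SD, n = 3), and Nlrp3 held 0.799 ± 0.634 and 1.85 ± 0.496 CPM. Nlrp1b held 1, 2 and 3 counts in control libraries 1, 2 and 3 and 31, 45 and 7 in KO. The fold change of Nlrp3 ranged from 0.73, without control library 2, to 2.09, without control library 3. The DNA sensor Aim2 was not called (0.37, adjusted p = 0.0584). With the replicate block Aim2 passed the threshold (0.38, adjusted p = 0.0277), and its fold change was 0.205 without control library 3 (0.251). Nlrc3, reported as a negative regulator of innate signalling, fell from 36.1 ± 7.66 to 18.2 ± 1.93 CPM (edgeR log2 fold change −0.99, adjusted p = 0.00264). Pycard, the adaptor ASC through which most inflammasomes engage caspase-1, fell from 47.5 ± 3.54 to 31.5 ± 2.12 CPM (−0.59, adjusted p = 0.00451), opposite in direction to Casp1. Of the caspase-1 substrates, Il18 held 1, 2 and 4 counts in control libraries 1, 2 and 3 and 27, 67 and 79 in KO libraries 1, 2 and 3, and Il1b stayed at 0 to 6 counts per library. Gsdme, another gasdermin, fell from 19.2 ± 0.973 to 10.3 ± 2.16 CPM (−0.90, adjusted p = 0.00383). Tlr3, Nlrp1a, Nlrp1b, Il18 and Tnfrsf21, all with a mean under 5 CPM, were named after their values were seen.

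**Figure D5:**
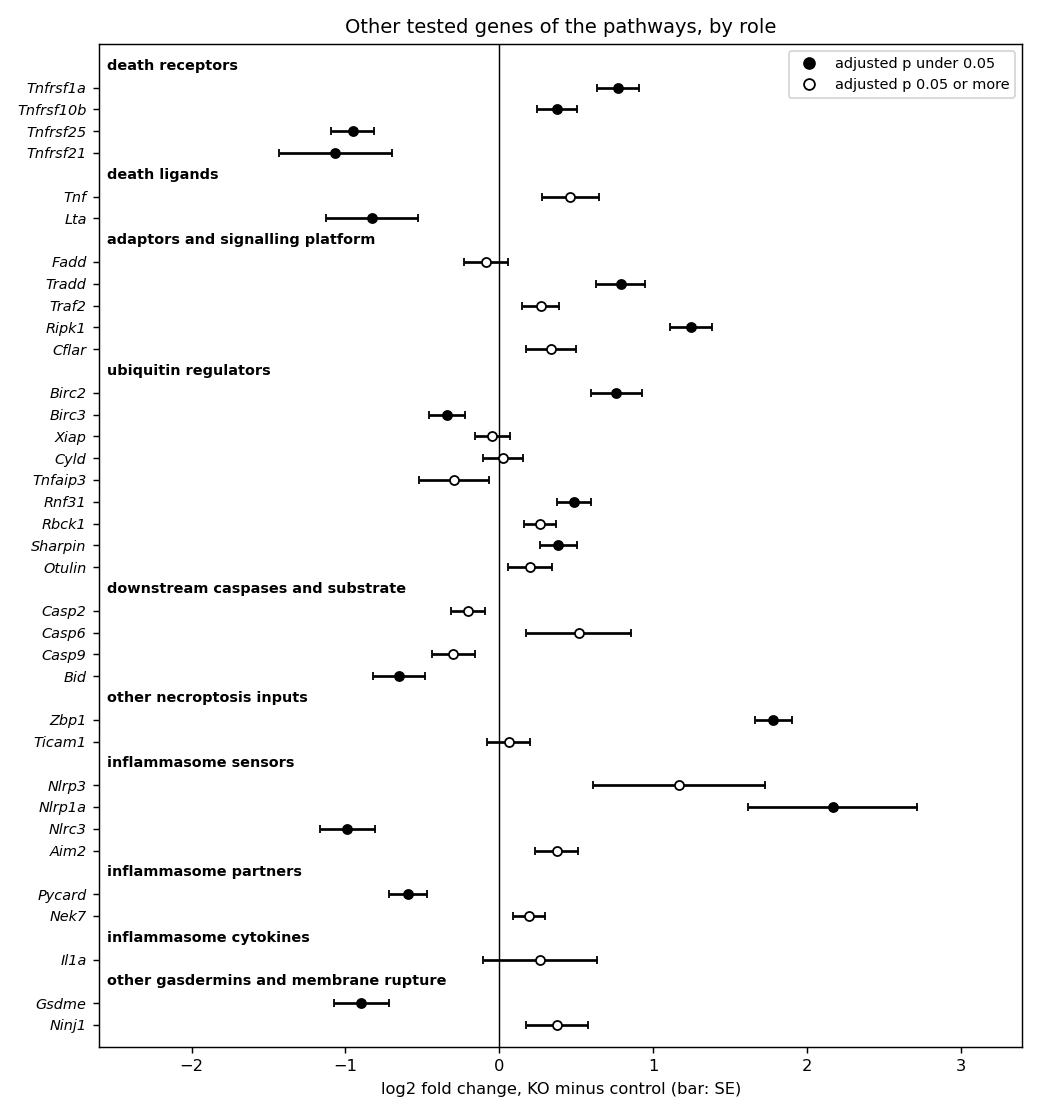
Log2 fold change of KO against control, with its SE, for other tested genes of the pathways, grouped by role and filled where the adjusted p is under 0.05; Tlr3, Nlrp1b and Il18, with fewer than 5 counts per control library on average, are left out. Filled points lie on both sides of 0 among the death receptors and ubiquitin regulators, and Nlrp1a and Nlrp3 passed the filter on low counts only through the KO libraries.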

How the data were processed

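The authors deposited 1 table of whole-number read counts per gene symbol for the 6 libraries, with 0 columns without a sample and 0 rows without a gene name. The submitters' processing notes name STAR, featureCounts and DESeq2 and the build mm10; versions, annotation and strand setting are not given in the sources used here. Group and replicate number came from the titles.

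All genes were fitted together with edgeR 4.0.16 (R 4.3.3): filterByExpr by group, TMM factors, robust quasi-likelihood fit and test, no covariate, Benjamini-Hochberg adjustment over 14268 genes and a threshold of 0.05. The SE is the absolute log2 fold change over the square root of F. The biological coefficient of variation was 0.212, which is the spread between libraries beyond counting error. The fit was also run on simulated counts in which only a small set of genes was changed. As 46.2% of all tested genes were called here, that run cannot gauge the scaling or the error rate in these data. CPM are counts scaled to a common total with TMM factors, and each kilobase is exon length in GENCODE M21 (GRCm38), which also gave positions by symbol. No exonic base of the 9 genes overlapped another gene, and at most 4.37% of their 50-base stretches (Casp8) occur in transcripts of another gene. Some of the other pathway genes did overlap. On the opposite strand, 17.7% of the exon bases of Bid overlapped Bcl2l13 and 12.8% of those of Pycard overlapped Gm45205. The part of such overlaps in the counts was not tested.

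Members, lists and tests were chosen with earlier results of these data known. All members were named, as were other pathway genes that were called at a mean of at least 5 CPM, and the 2 nearest genes of each called member. Some other pathway genes whose call an alternative changed were named, but not all of them. Some that were not called or not tested, such as Fadd, Ticam1, Casp2, Casp9 and Il1b, were named as well. Both groups carry the numbers 1, 2 and 3. Deviations from the group means correlated at 0.27, 0.13 and 0.379 for equal numbers, each above 0.1. An alternative fit therefore took the number as a block, while the main fit, which gave the calls, did not use it. Control library 2 correlated more with KO library 1 (0.204), and what a number marks is not in the labels. Alternatives were 4 other scalings, 2 other filters, DESeq2 1.42.0, limma-voom (limma 3.58.1), the replicate block, leaving out each library, and libraries 1 and 2 alone. Values of 2 genes of the pathway list are not reported here, though they are part of the counts.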

Additional observations from a re-analysis of the deposited data

How the results depend on the processing

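Casp1, Fas and Tnfsf10 stayed called and higher in all 16 alternatives. The members called, all higher, numbered 5, between 3 and 5 when 1 library was left out, and 6 with the replicate block, which added Casp4 and changed no other member's call. They numbered 3 without control library 1, KO library 2 or KO library 3. In those fits 5279, 4517 and 5046 genes in all were called, against 6586 in the main fit. Members called lower numbered 0 in every alternative. The other pathway genes called numbered 12 higher and 8 lower, 17 and 5 with scaling by library size only, and 10 to 13 higher and 4 to 8 lower with 1 library left out. These counts cover all 40 tested genes, also the 5 that passed the filter on low counts only through the KO libraries. Of the 35 that passed it in both groups, 8 were called higher and 8 lower in the main fit. Scaling by library size only moved the median log2 fold change over all genes from 0.013 to 0.102. With the replicate block, 26 other pathway genes and 7676 genes in all were called, against 20 and 6586. Aim2, Casp6, Cflar and Tnf were among those added. With library size only Mlkl, not called in any alternative, went from −0.061 to 0.026 and Fadd from −0.086 to 0.003, about as far as that median. Mlkl ran from −0.325 to 0.092 with 1 library left out. The log2 ratio of Cflar to Casp8 ran from −0.28 to 0.091 with 1 library left out; the cause was not tested. With 1 mismatch allowed, the motifs matched in 4 to 8 of 8 genes and in 35.4% to 71.4% of all windows. Nlrp1b had no value without KO library 2. Fasl and Tnfsf10 held the fewest counts of the members, at 20 to 148 per library. Fasl lost its call in 4 of the 16 alternatives, and Casp8, with 2201 to 7407 counts per library, lost it in 5. The part of sequencing depth in these results was not tested.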
